A study of Mus musculus with 4 samples.

Results

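The genes described here are 10 receptors that steer leukocytes through blood, lymphoid organs and tissue: Cxcr3, Cxcr4, Cxcr5, Cxcr6, Ccr2, Ccr6, Ccr7, Ccr9, Cx3cr1 and S1pr1. They were listed by symbol, with no threshold on a measured value, and each was found as 1 row of the 33696 gene rows in every library. Their UMIs (unique molecular identifiers, each standing for 1 captured RNA molecule) were read in B, T, NK, monocyte and dendritic cells, which were gated on UMIs of marker genes that include none of the 10 receptors.

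The libraries came from liver cells of male C57BL/6J mice, 7 weeks old at the start of the FPC diet, which is rich in fructose, palmitate and trans-fat and carries added cholesterol, a model of metabolic dysfunction-associated steatohepatitis. P-LC24 and P-HC24 were taken after 24 weeks of the diet with 0.05% and 1.25% cholesterol. I-LC32 was taken after 32 weeks at 0.05%, and I-HC32 after 24 weeks at 1.25% followed by 8 weeks at 0.05%. No library used here came from mice on a chow diet, so all groups share the fructose, palmitate and trans-fat. Each library pooled 4 fine-needle biopsies from each of 3 mice, and the same mice of an arm gave both of its libraries. There is therefore 1 library per condition: differences between conditions have no replicate check, carry no p-value, and their intervals cover counting error only. Prog denotes P-HC24 over P-LC24, and Int denotes I-HC32 over I-LC32.

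After the study's limits on UMIs, genes and mitochondrial share, the libraries held 5142, 6914, 7418 and 7351 cells in the order P-LC24, P-HC24, I-LC32, I-HC32, the order used throughout. Their median depth was 6403 to 8928 UMIs per cell. The 5 classes held 4524, 5503, 6300 and 5076 cells. Cells that carried markers of incompatible lineages were left out of the classes, and they made up 5.33%, 10.3%, 11.6% and 19.15% of the cells within the study's limits. Together with cells that passed no gate, they held 10.93%, 21.55%, 24.25% and 34.85% of the Cxcr5 UMIs of those cells. For all 10 receptors this share was lowest in P-LC24 and highest in I-HC32. The classes were checked on 5 further markers each that the gates did not use. All 5 were highest in their own class in all 4 libraries for B, NK and monocyte cells, as were 4 of 5 for T cells, but only 2 of 5 for dendritic cells, a class of 48 to 90 cells that is therefore called by its gate. A cell past both the dendritic and the monocyte gate was counted as dendritic. In the dendritic class 72.3%, 95.8%, 83.3% and 95.6% of cells held a UMI of the monocyte gate markers. How many of them were monocytes was not tested. Levels are given as CPM, the UMIs of a gene per 1000000 UMIs of the cells concerned. RNA of some other lineages was higher in the high-cholesterol library at both times. The 3 monocyte gate markers, all detected, summed to 49.99, 109.5, 62.3 and 150.1 CPM in B cells and to 64.8, 111.5, 90.2 and 211.9 CPM in T cells. The 3 B-cell gate markers, also all detected, summed to 10.2, 18.1, 12.5 and 23.8 CPM in T cells. Some lists did not follow. In B cells the T-cell gate markers summed to 5.16, 7.75, 7.76 and 7.60 CPM and the NK gate markers to 0.783, 0.699, 0.225 and 0.188 CPM. The part of such RNA in the results was not tested. Between 17 and 41 barcodes were shared by any pair of libraries.

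Chemokine receptors are heptahelical receptors coupled to inhibitory G proteins, and they turn a gradient of ligand into directed movement. Cxcr4 binds CXCL12 and holds cells in marrow and tissue, Cxcr5 binds CXCL13 and draws B cells into follicles, Ccr7 binds CCL19 and CCL21 and brings naive lymphocytes and mature dendritic cells into lymph nodes, and S1pr1 senses sphingosine-1-phosphate and lets lymphocytes leave them. Cxcr3 (ligands CXCL9 and CXCL10), Cxcr6 (CXCL16, displayed by liver sinusoidal endothelium), Ccr2 (CCL2) and Cx3cr1 (CX3CL1) act in inflamed or peripheral tissue, whereas Ccr6 (CCL20) and Ccr9 (CCL25) are best known from mucosal sites.

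All 10 genes are protein coding. In GRCm39, the build of the deposited tables, Ccr9 (chr9:123507181-123613395), Cxcr6 (chr9:123635534-123640825) and Ccr2 (chr9:123901982-123913594) lie on the plus strand within 1 stretch of chromosome 9. Cx3cr1 (chr9:119877749-119898945) and Cxcr5 (chr9:44423083-44473174) lie on the minus strand of the same chromosome. The others are Cxcr3 (chrX:100775141-100777875, minus), Cxcr4 (chr1:128515936-128520044, minus), Ccr6 (chr17:8454869-8475973, plus), Ccr7 (chr11:99035022-99045911, minus) and S1pr1 (chr3:115504071-115508721, minus). Ccr9 overlaps Slc6a20a and Lztfl1 on the opposite strand and Gm17200 on its own strand, Cxcr6 overlaps Fyco1, and Cxcr5 overlaps Bcl9l on the opposite strand and Gm57025 on its own, so reads in shared stretches depend on how they were assigned.

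The 250 bases before the start site are shown for Cxcr6 and Cxcr3, the receptors of tissue T cells whose levels went together across cell groups, and for Ccr9, which marked naive-type CD8 cells instead. They were taken from RefSeq on GRCm38.p6, an older build than that of the counts, and run 5′ to 3′ on the strand of the gene. The capitals mark a match to a short motif on either strand.
Cxcr6, chr9:123806227-123806476, plus strand: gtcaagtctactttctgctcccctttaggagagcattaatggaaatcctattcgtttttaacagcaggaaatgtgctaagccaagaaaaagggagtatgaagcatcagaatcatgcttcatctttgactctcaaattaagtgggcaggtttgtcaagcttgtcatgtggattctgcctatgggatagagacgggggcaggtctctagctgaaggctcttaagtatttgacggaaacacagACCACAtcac
Cxcr3, chrX:101734148-101734397, minus strand: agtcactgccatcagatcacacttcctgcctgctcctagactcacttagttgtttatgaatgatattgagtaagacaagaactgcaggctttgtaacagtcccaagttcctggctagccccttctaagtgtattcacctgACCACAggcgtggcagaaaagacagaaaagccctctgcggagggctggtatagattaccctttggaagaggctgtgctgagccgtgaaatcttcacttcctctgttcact
Ccr9, chr9:123766961-123767210, plus strand: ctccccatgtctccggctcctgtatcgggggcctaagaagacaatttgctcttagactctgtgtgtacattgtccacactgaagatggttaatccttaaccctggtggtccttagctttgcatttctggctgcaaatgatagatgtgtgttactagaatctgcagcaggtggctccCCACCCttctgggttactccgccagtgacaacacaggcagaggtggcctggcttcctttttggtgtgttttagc
Motifs searched were a RUNX motif (TGTGGT or ACCACA), a KLF motif (CCACCC or GGGTGG) and a T-box motif (AGGTGT or ACACCT), each counted separately on both strands, and no 2 matches found here overlap. Cxcr6 and Cxcr3 each held 1 RUNX match and Ccr9 held 1 KLF match. Cx3cr1 held 1 of each, and Cxcr4, Ccr2 and both Ccr6 entries held none of the 3. No T-box match was found in these windows. Over 32851 mouse promoter windows of the same length, 14.0% held the RUNX motif, 28.1% the KLF motif and 11.8% the T-box motif, so such matches are not rare. Cxcr5, Ccr7 and S1pr1 had no entry.

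Most of the receptors split by cell class in the same way in all 4 libraries. Levels of the receptors are not compared with each other. Cxcr5 was a B-cell gene at 198.5, 176, 215 and 292 CPM, and Ccr6, which guides B cells and some helper T cells towards CCL20, was found at 83.0, 59.9, 52.7 and 60.3 CPM in B cells. In T cells Cxcr5 stood at 17.3 to 38.0 CPM and Ccr6 at 0.605 to 2.39 CPM. NK cells were taken as a class that should lack both, and 0.848% to 5.17% of them held a Cxcr5 UMI and 0% to 1.09% a Ccr6 UMI, against 63.9% to 82.8% and 24.6% to 31.1% of B cells. The median depth of NK cells was 4970.5 to 6060.5 UMIs and that of B cells 5795 to 8122 UMIs.

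Ccr7 and S1pr1, the pair that governs entry to and exit from lymph nodes, were high in both B and T cells. Ccr7 was 249, 207, 251 and 221 CPM in B cells and 276, 337, 243 and 333 CPM in T cells. S1pr1 was 228, 163, 183 and 188 CPM in B cells and 289, 238, 184 and 237 CPM in T cells. The B-cell and T-cell ranges overlap for both genes. NK cells carried Ccr7 at only 3.54 to 11.6 CPM and S1pr1 at 26.0 to 78.4 CPM, and monocytes held S1pr1 at 2.14 to 5.04 CPM.

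Cxcr3 and Cxcr6 were T-cell and NK-cell genes. Cxcr3 stood at 35.3, 38.9, 73.5 and 63.5 CPM in T cells and at 29.0, 27.5, 63.8 and 60.7 CPM in NK cells. Both classes were higher in the libraries of week 32 than in those of week 24. Cxcr6 was 47.2, 16.9, 70.1 and 45.01 CPM in T cells, and 19.2%, 7.96%, 20.6% and 11.8% of T cells held a UMI. B cells, taken as a class that should lack Cxcr6, held a UMI in 1.47%, 0.462%, 0.557% and 0.781% of cells.

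Ccr2 and Cx3cr1 were, of the 5 classes, highest in monocytes and dendritic cells. Ccr2, which brings inflammatory monocytes out of marrow, was 671, 688, 802 and 752 CPM in monocytes, 597, 601, 547 and 494 CPM in dendritic cells and 253, 167, 235 and 168 CPM in NK cells. T cells held 20.1, 19.8, 33.2 and 52.3 CPM, and B cells 0.309 to 0.829 CPM. Cx3cr1, the receptor that marks patrolling monocytes, was 331, 173, 166 and 130.5 CPM in monocytes, 107, 47.0, 89.6 and 88.5 CPM in dendritic cells, and 76.0, 23.3, 46.1 and 37.5 CPM in NK cells.

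Cxcr4 was the one member found at over 30 CPM in all 5 classes and all 4 libraries. It was 205, 106.5, 119.6 and 94.6 CPM in B cells, 131, 119.8, 107 and 96.3 CPM in T cells and 217, 172, 129.5 and 78.4 CPM in monocytes. Ccr9 was found in several classes: T cells carried 20.6, 12.9, 9.20 and 8.37 CPM, B cells 3.38 to 4.93 CPM, and dendritic cells 148, 19.6, 14.4 and 2.08 CPM, a spread among libraries that is taken up with the dendritic cells.

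**Figure D1:**
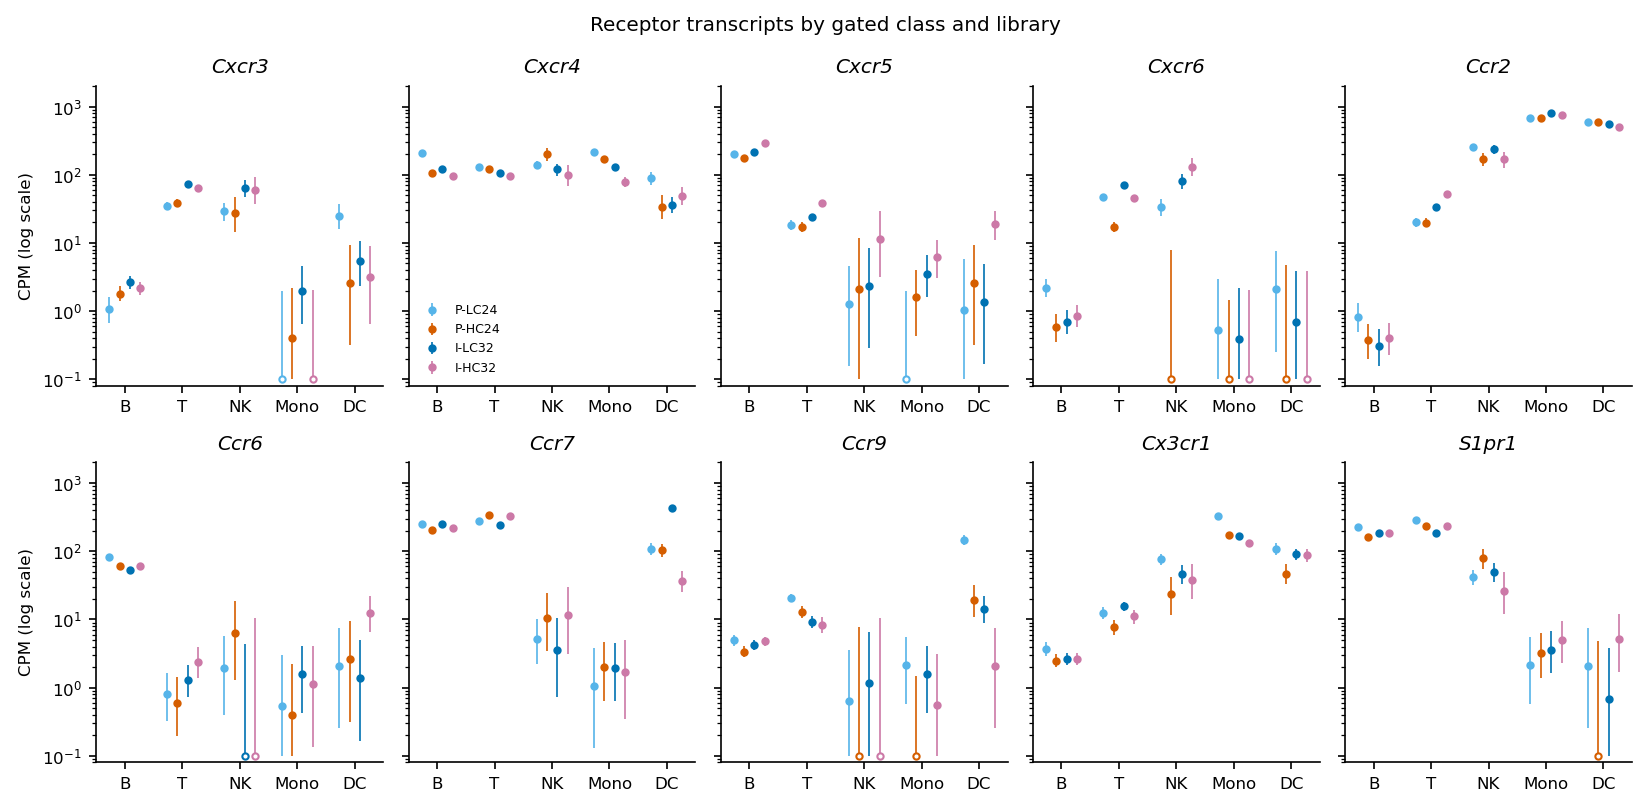
CPM of the 10 receptors (log scale, 1 panel a gene) in B, T, NK, monocyte and dendritic cells, with a point for each of the 4 libraries and bars for the 95% exact counting interval; open circles at the bottom mark 0 UMIs. Cxcr5 and Ccr6 stand out in B cells, Ccr2 and Cx3cr1 in monocytes and dendritic cells, and Cxcr6 has 0 UMIs in the NK cells of P-HC24.

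For each contrast and class, a member was called when its CPM differed by at least 1.5-fold and it had at least 100 UMIs over both libraries. In Prog, 1 of 7 such members was called in B cells, where 19.3% of all genes with that many UMIs were called; 3 of 9 in T cells (all genes 16.3%); 3 of 4 in NK cells (all genes 19.5%); 1 of 3 in monocytes (all genes 19.1%); and 3 of 5 in the dendritic class (all genes 34.8%). In Int, 0 of 8 were called in B cells (all genes 7.25%), 3 of 9 in T cells (8.46%), 1 of 3 in NK cells (8.31%), 1 of 3 in monocytes (16.2%) and 1 of 4 in the dendritic class (13%). The median log2 ratio of the members against that of all genes was -0.48 against -0.22 in B cells, -0.13 against -0.22 in T cells, -0.04 against -0.14 in NK cells, -0.34 against -0.11 in monocytes and -1.19 against -0.18 in dendritic cells for Prog. For Int these medians were 0.02 against 0.03, -0.14 against 0.04, -0.28 against 0.02, -0.34 against -0.07 and -0.08 against 0.02. With 3 to 9 members a class, single genes carry these counts, and they are described one class at a time.

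**Figure D2:**
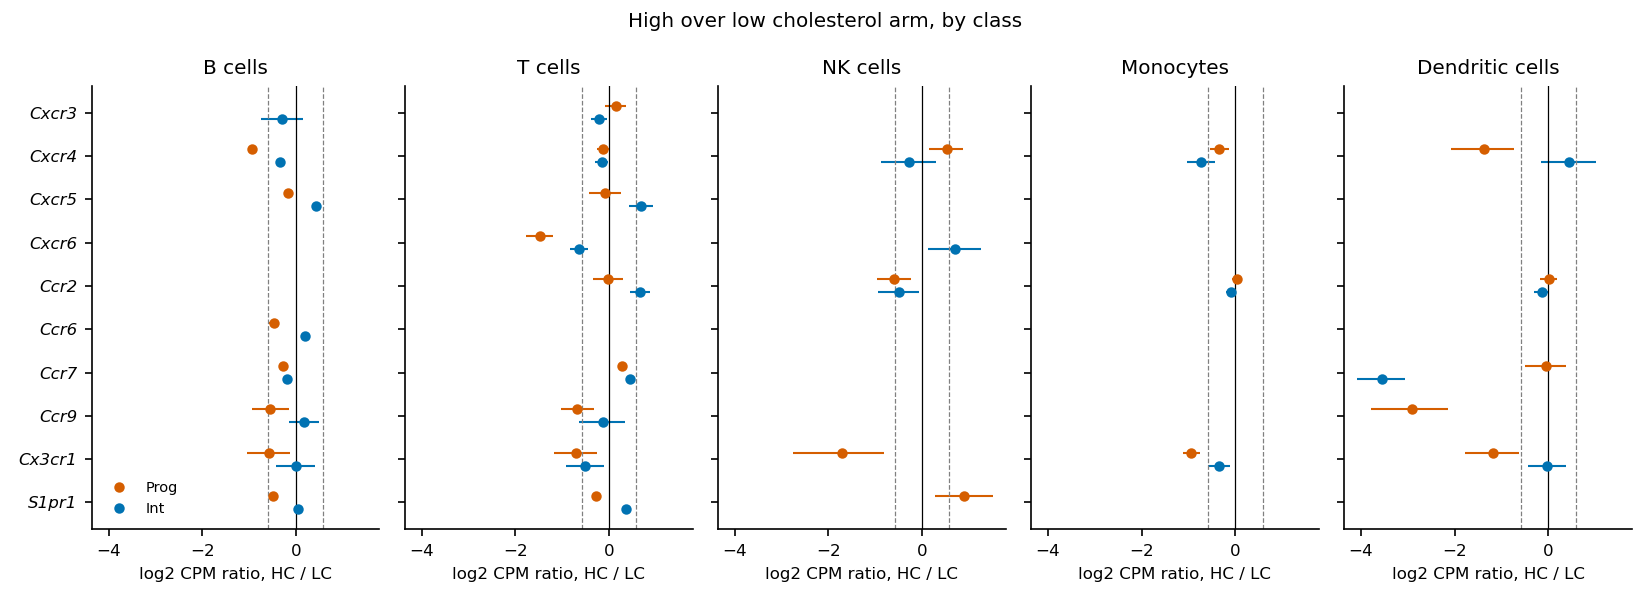
Log2 ratio of CPM for the members with at least 100 UMIs, by class, in Prog and Int, with 95% exact counting intervals; dashed lines mark 1.5-fold. Cxcr6 in T cells lies below the lower line in both contrasts (-1.48 and -0.64), and Ccr7 in dendritic cells lies far below it in Int (-3.55).

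In B cells Cxcr4, the receptor for CXCL12, was the only member called in Prog. It stood at 205 CPM in P-LC24 and 106.5 CPM in P-HC24, a log2 ratio of -0.95 (95% interval -1.01 to -0.88), and the share of B cells with a UMI was 66.3% and 51.4%. With each cell thinned to 2000 UMIs the shares were 35.4% and 23.6%. In Int it was 119.6 and 94.6 CPM, a log2 ratio of -0.34. P-LC24 thus stood above the other 3 libraries, which lay between 94.6 and 119.6 CPM.

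The other lymphoid receptors of B cells moved less in Prog. Ccr6 had a log2 ratio of -0.47, S1pr1 of -0.48, Ccr7 of -0.27 and Cxcr5 of -0.17, beside a median of -0.22 over all genes in B cells. The scarce Cx3cr1 and Ccr9, with 80 to 116 UMIs per library, lay just under 1.5-fold at -0.57 and -0.55 (3.69 and 2.48 CPM, and 4.93 and 3.38 CPM). In Int, Cxcr5 had the largest ratio of the 8 members, 0.44 (0.40 to 0.48), with 215 CPM in I-LC32 and 292 CPM in I-HC32. After thinning, 29.7%, 27.6%, 34.4% and 43.0% of B cells held a Cxcr5 UMI. I-HC32 was the highest library on both scales, but its fold over I-LC32 in CPM stayed under 1.5. Mean Cxcr5 UMIs per B cell were 1.78 in I-LC32 and 2.83 in I-HC32, which is past 1.5-fold.

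The B cells were divided by marker UMIs. B-1-type cells held at least 2 UMIs of Zbtb32, Bhlhe41, Plscr1, Cd5 and Spn and none of Fcer2a, the gene of CD23. Follicular-type cells held a UMI of Fcer2a and none of the B-1-type markers. Passing these gates depends on the depth of a cell, and the types were not matched for depth. The median depth of all B cells was 5795, 6367, 6371 and 8122 UMIs. Follicular-type cells numbered 1600, 1191, 1415 and 765, and B-1-type cells 454, 1161, 1197 and 1518. B-1 cells are a self-renewing population best known from the body cavities. B-1-type cells were more numerous in the high-cholesterol library at both times, so that the mix enters every B-cell value above.

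These B-cell types differed in several receptors, by the same sign in all 4 libraries. Ccr7 was 329, 384, 490.4 and 480.0 CPM in follicular-type and 75.3, 77.0, 61.5 and 88.4 CPM in B-1-type cells, a mean log2 difference of -2.47 (SD 0.37, n = 4 libraries). Cxcr4 was 269, 175, 204 and 174 CPM against 78.5, 54.0, 50.4 and 60.6 CPM, a mean log2 difference of -1.75 (SD 0.21, n = 4). Neither gene's ranges overlap between the types. Ccr6 was also lower in B-1-type cells, by a mean log2 difference of -1.54 (SD 0.42, n = 4), and Cx3cr1 by -0.71 (SD 0.19, n = 4), while Ccr9 was higher, by 1.67 (SD 0.72, n = 4), from levels of 1.09 to 3.45 CPM to 5.34 to 7.08 CPM. Each of these 5 differences had a two-sided exact permutation p of 0.125 (sign flips over n = 4 libraries), which is the smallest that 4 libraries allow, so no comparison within libraries could reach 0.05. The libraries of an arm came from the same mice, so the 4 are not independent, here and in the tests below. Cxcr3 was higher in B-1-type cells in 4 of 4 libraries at 1.24 to 2.68 CPM, with a mean of 0.93 (SD 1.16, exact permutation p = 0.125, n = 4). Cxcr5 did not separate the types (mean 0.02, SD 0.12, exact permutation p = 0.875, n = 4), nor did S1pr1 (mean 0.09, SD 0.23, exact permutation p = 0.375, n = 4).

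Within the types, the Prog difference of Cxcr4 kept its sign: the log2 ratio was -0.62 in follicular-type, -0.54 in B-1-type and -0.77 in the other B cells. It was past 1.5-fold in the follicular-type and the other cells and not in the B-1-type cells, a difference that was not tested. With the 3 types weighted equally it was -0.67, against -0.95 in the class as a whole. Ccr7, at -0.27 in all B cells, was 0.22 in follicular-type, 0.03 in B-1-type and -0.11 in the other B cells. In Int, B-1-type cells had higher Ccr6 (22.8 and 35.9 CPM, log2 ratio 0.66, interval 0.47 to 0.85) and Ccr7 (61.5 and 88.4 CPM, 0.52, interval 0.41 to 0.64), and Cxcr4 went the other way from the class, at 0.27. Cxcr5 had nearly the same Int ratio in each type, 0.42, 0.44 and 0.47 in follicular-type, B-1-type and other B cells.

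In T cells the largest difference among the members in Prog was that of Cxcr6, which keeps resident lymphocytes in liver sinusoids. For Prog, T cells held 409 and 140 UMIs, or 47.2 and 16.9 CPM, a log2 ratio of -1.48 (-1.77 to -1.20). In Int they held 70.1 and 45.01 CPM, a ratio of -0.64 (-0.83 to -0.45), slightly smaller in size than those of Cxcr5 (0.68) and Ccr2 (0.66). The high-cholesterol library was lower at both times, and the thinned shares of cells with a UMI were 8.66%, 2.40%, 9.76% and 5.53%. In Prog the ratio lay between -1.14 (mitochondrial limit of 5%) and -1.69 (without the 3 cells with the most UMIs) under the ways of weighting, scaling or selecting cells that were tried, and was -1.20 with subsets weighted equally and -1.46 after thinning. In Int it was -0.32 after thinning, -0.53 with cells weighted equally and -0.01 with subsets weighted equally, so the Int call depends on the weighting.

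CD8 experienced-type cells had a UMI of Cd8a or Cd8b1 and none of Cd4. They also had at least 2 UMIs of Ccl5, Nkg7 and S100a4, and more than of the naive-type markers given below. They held 297 of the 409, 75 of the 140, 500 of the 807 and 108 of the 301 Cxcr6 UMIs of T cells. That is the larger part in every library except I-HC32. These cells numbered 323, 300, 566 and 250. Their Cxcr6 was 103, 28.1, 105 and 56.6 CPM, and 37.8%, 14.7%, 35.0% and 17.6% of them held a UMI. The log2 ratio was -1.87 (-2.26 to -1.50) in Prog and -0.90 (-1.21 to -0.59) in Int, and the values of the high-cholesterol arm lay below both of the other libraries. Innate-type T cells, which carried Zbtb16 or Trdc, held 107, 76.5, 209.5 and 284 CPM in 44, 40, 86 and 39 cells. In them the high-cholesterol library was lower in Prog but higher in Int.

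The other receptors of the CD8 experienced-type cells did not all follow Cxcr6. Cx3cr1 was lower in the high-cholesterol library, at -0.74 (-1.33 to -0.16) in Prog and -0.46 (-1.035 to 0.09) in Int. Ccr2 was also lower, at -0.40 (-0.90 to 0.10) and -0.34 (-0.77 to 0.08), with intervals that include 0. Ccr7, which is high on cells that recirculate through lymph nodes, was 177, 253, 154 and 230.2 CPM, a log2 ratio of 0.51 (0.35 to 0.68) in Prog and 0.58 (0.41 to 0.75) in Int. Cxcr3, the receptor for interferon-induced chemokines, was 61.8, 61.9, 114 and 105 CPM, which gave 0.00 (-0.31 to 0.32) and -0.11 (-0.35 to 0.13). Cxcr3 was thus higher in the later library of each arm, and the intervals of its ratios between arms included 0. Cxcr6 was lower and Ccr7 higher in the high-cholesterol library at both times. With 1 library per condition, these differences cannot be assigned to week or to diet arm. S1pr1 was 185, 167, 146 and 145 CPM, with ratios of -0.15 and -0.01.

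Cxcr6 and Ccr7 were also seldom found in the same T cell. After thinning to 2000 UMIs, 4.71%, 20%, 7.38% and 0% of T cells with a Cxcr6 UMI held a Ccr7 UMI, against 36.4%, 43.0%, 35.7% and 41.8% of those without. The 0% stands for 0 of 53 cells. Cxcr3 went the other way, with 10.6%, 24.0%, 23.5% and 26.4% of the Cxcr6-bearing cells against 5.36%, 7.37%, 11.7% and 11.7% of the rest.

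CD8 experienced-type cells with a Cxcr6 UMI (122, 44, 198 and 44 cells) differed from those without in genes of tissue residency and chronic stimulation. These genes were picked after their values were seen and are a description only. Tox, a regulator of exhausted T cells, was 1885, 545, 992 and 1440.0 CPM in cells with Cxcr6 and 440.4, 205, 454 and 662 CPM in cells without. Pdcd1, the gene of PD-1, was 174, 46.9, 76.3 and 163 CPM against 17.5, 15.8, 16.1 and 72.1 CPM. Gzmb, a cytotoxic granzyme, was 358, 232, 291 and 326 CPM against 41.8, 30.2, 51.2 and 29.1 CPM, and Itga1, the alpha chain of a collagen-binding integrin of resident cells, 47.8, 49.5, 67.5 and 39.99 CPM against 9.28, 2.63, 13.5 and 7.58 CPM. Tcf7, a factor of naive and memory cells, ran the other way at 104, 146, 139 and 80.0 CPM against 286, 237, 233 and 209 CPM. All 5 genes kept their direction in all 4 libraries, and Tox and Pdcd1 of the Cxcr6-bearing cells were lowest in P-HC24.

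CD8 naive-type cells had a UMI of Lef1, Igfbp4, Dapl1 or a further marker, and more of these than of the experienced-type markers. The Cd8 and Cd4 limits were the same. They were set beside the experienced-type cells within each library, without matching for depth. Across the 4 libraries Cxcr3 was higher in experienced-type cells by a mean log2 difference of 3.35 (SD 0.84), Ccr2 by 3.50 (SD 1.29), Cxcr6 by 2.76 (SD 0.57) and Cx3cr1 by 2.44 (SD 0.40), each higher in 4 of 4. Ccr9 was lower by a mean of -2.80 (SD 0.51), Ccr7 by -1.17 (SD 0.21) and S1pr1 by -0.53 (SD 0.23), each in 4 of 4. The exact permutation p of these 7 was 0.125 with n = 4, while Cxcr5 was higher in 3 of 4 (mean 1.23, SD 0.94, exact permutation p = 0.25, n = 4).

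**Figure D3:**
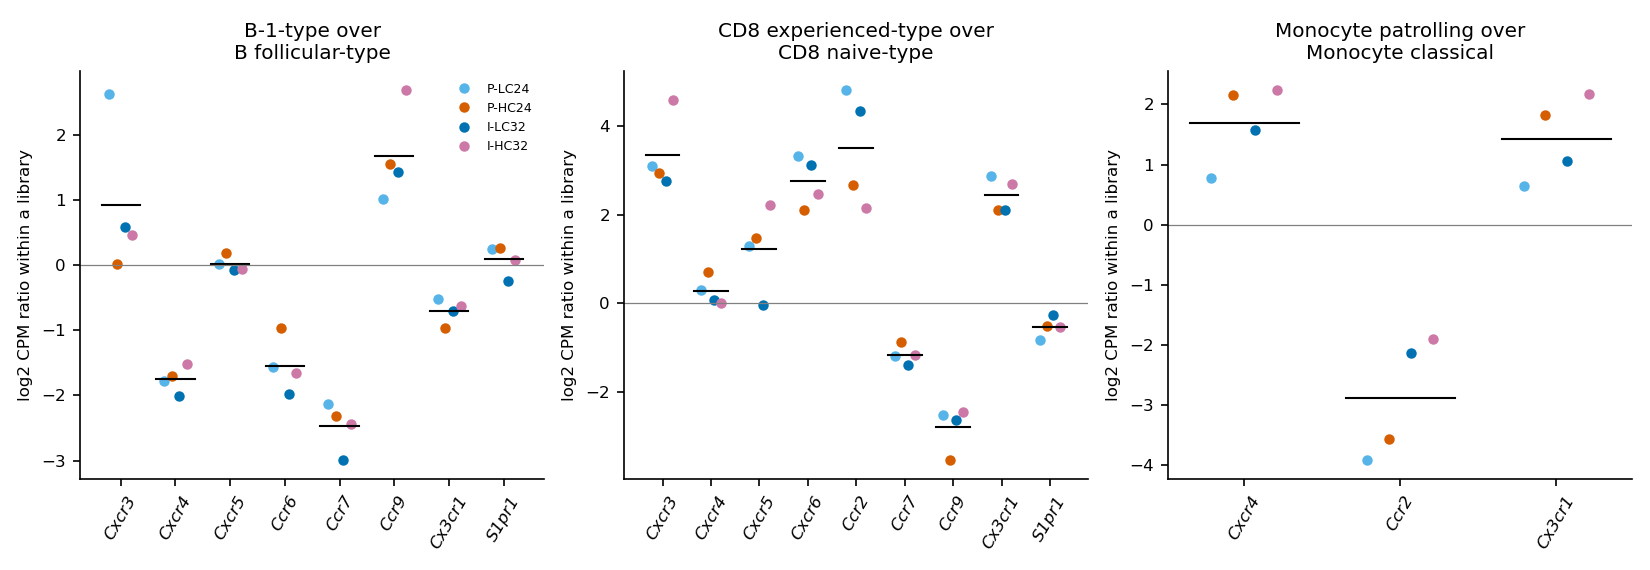
Log2 ratio of CPM between subsets of the same library, for B-1-type over follicular-type B cells, CD8 experienced-type over naive-type T cells and patrolling over classical monocytes; each point is a library and each bar the mean of the 4. In B-1-type cells Ccr7 and Cxcr4 lie below 0 and Ccr9 above 0 in all 4 libraries, and Cxcr5 lies near 0 (mean 0.02).

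Ccr9, the gut-homing receptor that newly made T cells also carry, was thus a gene of CD8 naive-type cells, at 48.3, 30.9, 31.8 and 40.7 CPM with 27.0%, 19.1%, 18.7% and 21.4% of cells holding a UMI. CD4 naive-type cells lay below them in all 4 libraries, by a mean log2 difference of -3.96 (SD 1.04, exact permutation p = 0.125, n = 4). The CD4 naive-type cells held only 5, 2, 2 and 1 Ccr9 UMIs. In all T cells Ccr9 was called in Prog, at -0.67 (-1.03 to -0.32), and in the CD8 naive-type cells alone it was -0.65 (-1.06 to -0.24). With subsets weighted equally the sign turned, to 0.12. The ratio was no longer past 1.5-fold with T-cell ratios centred on the median gene, at a 5% mitochondrial limit, or with other totals. Those totals left out immunoglobulin, mitochondrial, ribosomal protein and haemoglobin genes. Cx3cr1 in T cells was likewise called in Prog, from 12.4 to 7.62 CPM, at -0.71 (-1.18 to -0.25). It was not called once centred, at that limit, with those totals, or in T cells with no UMI of the B-cell gate markers.

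Cxcr5 was called in T cells in Int. It stood at 18.3, 17.3, 23.7 and 38.0 CPM, a log2 ratio of 0.68 (0.43 to 0.93). In CD8 experienced-type cells it was 28.5, 26.6, 24.4 and 60.8 CPM, a ratio of 1.32 (0.93 to 1.70), with a UMI in 19.8%, 18.7%, 16.4% and 30% of cells, and I-HC32 stood above the other 3 libraries. B cells are the main source of this gene, and the B-cell gate markers in T cells were also highest in I-HC32, at 23.8 CPM. The part of B-cell RNA in this ratio was not tested. In T cells with no UMI of those markers the ratio was 0.81, and by mean UMIs per cell it was 0.57 and not called. Among CD8 experienced-type cells, the B-cell gene Cd79a was at 0, 7.30, 2.42 and 11.2 CPM in those with a Cxcr5 UMI and at 6.39, 11.3, 6.37 and 19.5 CPM in the rest. Ms4a1, the gene of CD20, was at 1.45, 7.30, 3.63 and 4.82 CPM against 3.65, 2.83, 3.06 and 7.78 CPM, higher in the Cxcr5-bearing cells of P-HC24 and I-LC32, from 1 to 4 UMIs per library in them. Cd74, a gene of antigen presentation, was at 28.96, 54.7, 41.2 and 85.2 CPM against 24.65, 61.35, 32.4 and 87.95 CPM, higher in those of P-LC24 and I-LC32.

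Ccr2 was called in T cells in Int, at 33.2 and 52.3 CPM, a log2 ratio of 0.66 (0.45 to 0.87). The CD8 experienced-type cells did not follow, at 41.1 and 32.5 CPM. In I-HC32 most of the Ccr2 UMIs lay in T cells with a UMI of Il1rl1, the gene of the IL-33 receptor ST2, a marker of type-2 helper and innate lymphoid cells. Such cells numbered 10, 21, 17 and 62, or 1.01%, 2.01%, 1.11% and 6.44% of T cells, and held 5.75%, 32.3%, 12.0% and 60% of all T-cell Ccr2 UMIs. They held 210 of 350 Ccr2 UMIs in I-HC32 and 46 of 382 in I-LC32. Without them the Int ratio was -0.36 (-0.66 to -0.07), and with subsets weighted equally it was -0.27. In Prog the ratio was -0.02 (-0.33 to 0.30) with them and -0.47 (-0.83 to -0.11) without them. In the CD4 naive-type cells of I-HC32, 12 cells held 57 Ccr2 UMIs, against 1 UMI in I-LC32, and these 12 carried Il1rl1 at 490.5 CPM against 1.10 CPM in the rest. Il1rl1 was picked after its values were seen, so the lower ratios without the cells that held it follow from that choice and are a description only.

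Among the T cells that fell in no named subset, those with a Ccr2 UMI numbered 12, 18, 31 and 45. Gata3, the master factor of type-2 lymphocytes, was 66.2, 379, 147 and 402 CPM in them and 55.6, 35.2, 68.1 and 64.6 CPM in the rest. Il1rl1 was 0, 285, 66.9 and 459 CPM against 8.997, 2.94, 1.40 and 3.43 CPM, and Kit, a receptor of progenitors, mast cells and some innate lymphoid cells, 18.9, 197, 0 and 371 CPM against 4.91, 2.94, 0 and 1.71 CPM. The values of P-HC24 and I-HC32 stood above those of the low-cholesterol libraries for all 3 genes in the Ccr2-bearing cells.

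**Figure D4:**
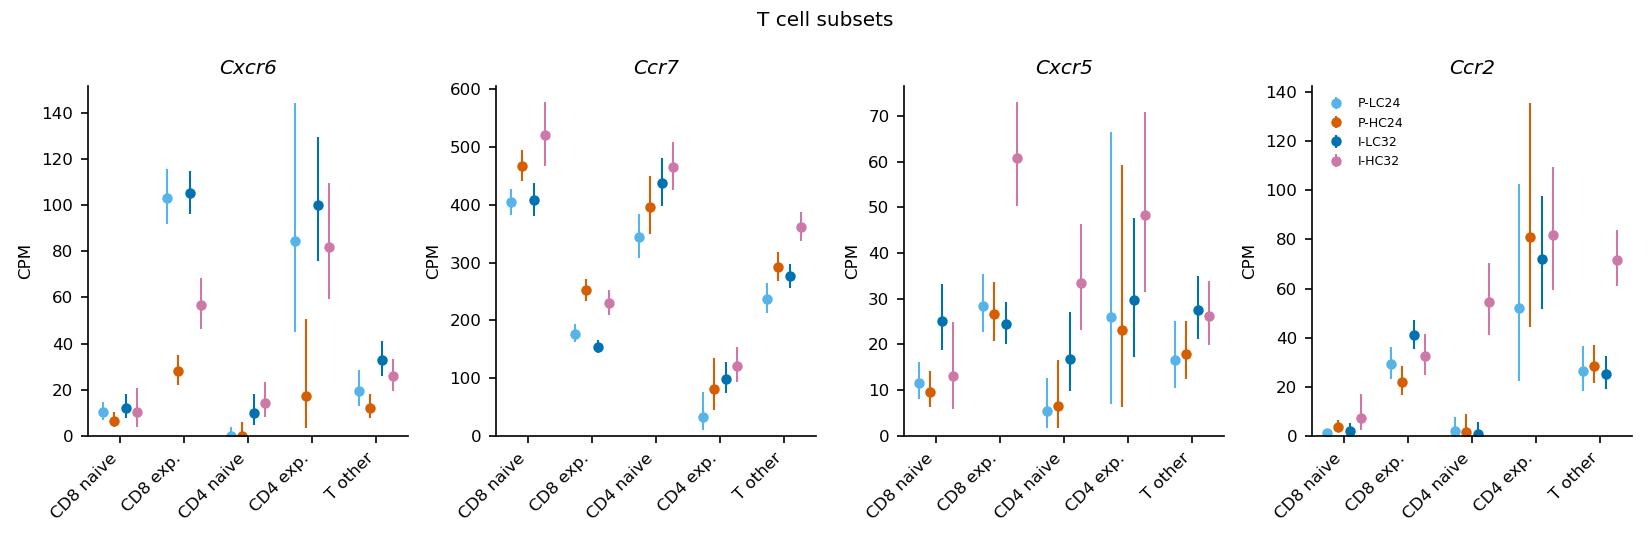
CPM (linear scale) of Cxcr6, Ccr7, Cxcr5 and Ccr2 in subsets of T cells, a point for each library with its 95% exact counting interval. In CD8 experienced-type cells Cxcr6 is at 28.1 CPM in P-HC24 against 103 CPM in P-LC24 and Cxcr5 at 60.8 CPM in I-HC32, and Ccr2 of I-HC32 stands out in CD4 naive-type (54.3 CPM) and other T cells (71.8 CPM).

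The remaining T-cell members were under 1.5-fold in both contrasts. Ccr7 was 0.29 in Prog and 0.45 in Int, S1pr1 was -0.28 and 0.36, Cxcr3 0.14 and -0.21, and Cxcr4 -0.13 and -0.15 on the log2 scale. Ccr6 had 5 to 16 UMIs per library and was not compared. Of 12 immediate early genes, a sign of handling as well as of stimulation, 4 were called in T cells in Prog and 5 in Int, all higher in the high-cholesterol library, beside 16.3% and 8.46% of all genes. Their median ratios were 0.35 and 0.50 beside -0.22 and 0.04 for all genes. Atf3 had the highest ratios, 2.23 and 3.02, and Dusp1 the lowest in Prog, -0.24 (-0.36 to -0.13). Their part in the T-cell results was not tested.

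NK cells numbered 236, 92, 140 and 58. Cxcr6 had 52, 0, 68 and 45 UMIs, or 33.5, 0, 80.3 and 130.0 CPM. The 0 of 92 cells of P-HC24 allows a share of cells with a UMI of up to 3.26% when 3 counts are taken as the limit, and the exact upper 95% bound is 3.93%. The shares were 8.05%, 12.9% and 15.5% in the other libraries, whose exact lower 95% bounds were 4.92%, 7.80% and 7.35%. In Int the log2 ratio was 0.70 (0.12 to 1.26), resting on 9 cells with a UMI in I-HC32, and 3 of them held 53.3% of its UMIs. Without the 3 cells with the most UMIs in each library it was 0.47 and not called.

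NK cells with a Cxcr6 UMI (19, 0, 18 and 9 cells) differed from the others in integrins and in Eomes, genes by which liver-resident type 1 innate lymphoid cells are commonly told from conventional NK cells. Itga1 was 131, 203 and 371 CPM in them, in P-LC24, I-LC32 and I-HC32, and 33.1, 20.04 and 0 CPM in the other NK cells of those libraries. Eomes, the factor of conventional NK cells, was 18.7, 6.76 and 0 CPM against 220.0, 208 and 201 CPM, and Itga2, the gene of CD49b, 93.3, 67.6 and 41.2 CPM against 669, 432 and 282 CPM. In P-HC24, where no NK cell held a Cxcr6 UMI, Itga1 was at 6.36 CPM, below the other NK cells of P-LC24 and I-LC32. These genes were picked after their values were seen.

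**Figure D5:**
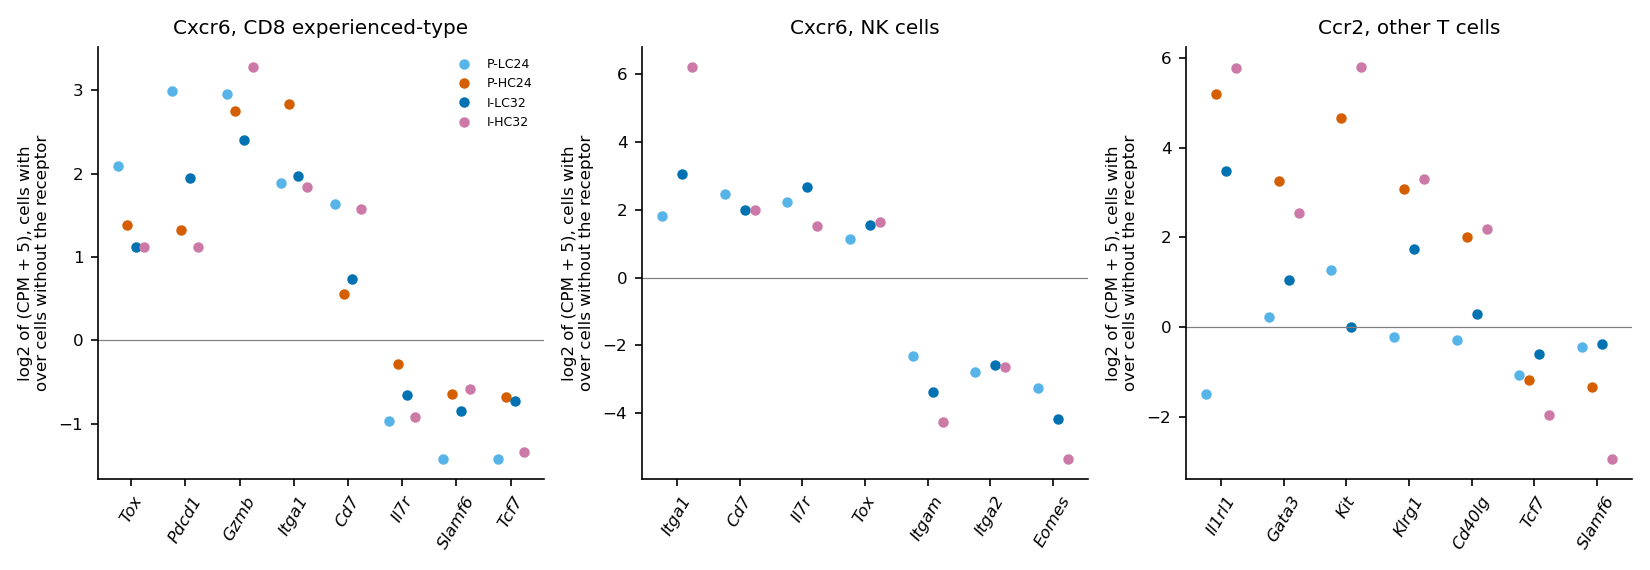
Log2 ratio of (CPM + 5) of other genes in cells with over cells without a UMI of a receptor, a point for each library, for Cxcr6 in CD8 experienced-type cells, Cxcr6 in NK cells (3 libraries, since P-HC24 had no such cell) and Ccr2 in T cells of no named subset; the genes were picked after their values were seen. Tox, Pdcd1, Gzmb and Itga1 lie above 0 and Tcf7 below 0 in all 4 libraries for Cxcr6 in CD8 experienced-type cells.

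Ccr2 of NK cells was called in Prog, from 253 to 167 CPM, at -0.60 (-0.97 to -0.25), close to the 1.5-fold line, and was -0.49 in Int. It was no longer called once centred on the median gene or thinned, or in NK cells with no UMI of the B-cell gate markers. Nor was it called with totals that left out immunoglobulin, mitochondrial, ribosomal protein and haemoglobin genes. Cxcr4 of NK cells lay under 1.5-fold in both, at 0.52 (138.5 and 199 CPM) and -0.28. Cx3cr1, a gene of mature NK cells, was called from 118 and 11 UMIs, or 76.0 and 23.3 CPM, at -1.71 (-2.75 to -0.82). S1pr1, which lets NK cells leave marrow and nodes, was 41.9 and 78.4 CPM, at 0.90 (0.28 to 1.51), from 65 and 37 UMIs, and was 0.55 and not called without the 3 cells with the most UMIs. In the libraries of week 32 it was 49.6 and 26.0 CPM, from 42 and 9 UMIs.

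Monocytes, numbering 170, 204, 228 and 148, were divided into classical cells (at least 2 UMIs of F13a1, Chil3, Ly6c2 and Ms4a4c) and patrolling cells (at least 2 UMIs of Ace, Treml4, Cd300e and Eno3). Each type also had more UMIs of its own list than of the other. Ccr2 was 1009, 835, 896 and 881 CPM in classical and 67.0, 71.2, 205 and 236 CPM in patrolling monocytes, a mean log2 difference of -2.87 (SD 1.01, n = 4). Cx3cr1 was 281, 115, 147 and 89.6 CPM against 437, 404, 306 and 405 CPM, a mean of 1.42 (SD 0.70, n = 4), and Cxcr4 was also higher in patrolling cells, by 1.69 (SD 0.68, n = 4). All 3 kept their direction in 4 of 4 libraries, with an exact permutation p of 0.125 (n = 4).

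In Prog, Cx3cr1 was the called member of monocytes, from 331 to 173 CPM, at -0.94 (-1.12 to -0.76). It was lower in the classical cells (281 and 115 CPM, -1.29, interval -1.55 to -1.04) but 437 and 404 CPM in the patrolling cells (-0.12, interval -0.39 to 0.16). It was not called with cells weighted equally (-0.45), after thinning (-0.17) or with subsets weighted equally (-0.40). In Int, Cxcr4 was called, from 129.5 to 78.4 CPM, at -0.72 (-1.02 to -0.43), and in classical cells it was 107 and 51.6 CPM. It was -0.21 with cells weighted equally and -0.26 after thinning. Ccr2 stayed at 0.04 in Prog and -0.09 in Int. Cxcr4 was not called in Prog, at -0.34, but was past 1.5-fold in each type, in opposite directions. It was -0.69 (-0.97 to -0.40) in classical and 0.69 (0.41 to 0.98) in patrolling cells. Cx3cr1 was not called in Int, at -0.34, but was past 1.5-fold in classical cells, at -0.71 (-1.05 to -0.39).

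The dendritic class held 65, 48, 90 and 68 cells, and its calls rested on a few of them. Ccr9, a receptor of plasmacytoid dendritic cells, was 148, 19.6, 14.4 and 2.08 CPM. Plasmacytoid-type cells, with 2 UMIs of Siglech, Cox6a2 and Klk1, numbered 11, 2, 1 and 3, and they held 121, 13, 3 and 2 of the 142, 15, 21 and 2 Ccr9 UMIs. The Prog ratio of -2.92 (-3.79 to -2.15) therefore went with 11 and 2 cells of that type.

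Ccr7 of the dendritic class was 107, 103, 426 and 36.4 CPM, and the Int ratio was -3.55 (-4.08 to -3.06). Mature-type cells, with 2 UMIs of Fscn1, Ccl22 and Socs2, numbered 4, 4, 17 and 2 and held 93, 79, 603 and 27 of the 103, 79, 622 and 35 Ccr7 UMIs. Within them the gene stood at 1796, 1833, 2679 and 944 CPM. I-LC32 held more of these cells than the other libraries, and the ratio of the class turned to 1.43 when subsets were weighted equally, since subsets with under 10 cells in a library then dropped out. Cxcr4 (88.5, 33.9, 36.3 and 48.9 CPM) and Cx3cr1 (107, 47.0, 89.6 and 88.5 CPM) were also called in Prog, at -1.38 and -1.19, from 26 and 36 UMIs in P-HC24. Ccr2 was 0.01 in Prog and -0.14 in Int.

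Other genes of leukocyte trafficking were read from 3 lists in B and T cells. Of 18 adhesion and homing molecules, 16 had 100 UMIs in T cells in Prog, and 8 of these were at least 1.5-fold lower and 0 higher, with a median of -0.55 beside -0.22 for all genes, of which 16.3% were called. Itgae, the gene of CD103 on epithelial resident T cells, had the lowest ratio, at -1.69 (15.2 and 4.72 CPM). Icam2, an integrin ligand of the vessel wall, had the highest, at 0.25, and Selplg, the selectin ligand PSGL-1, the highest level, at 0.04. In Int 3 of 16 were called, all lower, beside 8.46% of all genes, with a median of -0.02 beside 0.04. Itga1 had the lowest ratio, at -1.42 (24.8 and 9.27 CPM), Itga2 the highest, at 0.58, and Itga4, the alpha chain of VLA-4, the highest level, at 0.00.

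In B cells 4 of 14 adhesion molecules were called in Prog, 2 in each direction, beside 19.3% of all genes, and 0 of 14 in Int, beside 7.25%. Their medians were -0.12 and 0.05, beside -0.22 and 0.03 for all genes. Itgam had the highest ratio in Prog, at 0.67, and Itgb1 in Int, at 0.41. Itga4 had the highest level, with ratios of -0.49 and -0.06.

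Of 25 other chemoattractant receptors, 4 reached 100 UMIs in B cells and 3 in T cells in Prog, with 2 and 1 called beside 19.3% and 16.3% of all genes. In Int 7 and 4 did, with 3 and 1 called beside 7.25% and 8.46%. Their medians in B and T cells were 0.28 and -0.05 in Prog (all genes -0.22 in both) and -0.16 and 0.11 in Int (0.03 and 0.04). Gpr183, which senses oxysterols and places B and T cells in lymphoid tissue, had the highest level in both classes: it was lowest by ratio in B cells in Prog, at -0.61 (497 and 327 CPM), and -0.13 in Int, and in T cells it was -0.05 and 0.40. S1pr4 had the highest T-cell ratio in Prog, at 0.22, and the lowest in Int, at -0.35, where Ltb4r1, a leukotriene receptor, had the highest, at 1.46 (4.25 and 11.7 CPM). In B cells Ccr1 was highest in Prog, at 0.82, and lowest in Int, at -0.75, and Ccrl2 highest in Int, at 0.75.

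Of 22 regulators of receptor signalling and trafficking, 3 of 22 were called in B cells in Prog and 1 of 22 in Int, beside 19.3% and 7.25% of all genes, and 2 of 20 and 1 of 20 in T cells, beside 16.3% and 8.46%. Their medians were -0.19 and -0.02 in B cells and -0.10 and 0.06 in T cells, beside -0.22 and 0.03, and -0.22 and 0.04, for all genes. Klf2, the factor that drives S1pr1 in resting lymphocytes, had the highest level in B cells and ratios of 0.29 in both contrasts, while S1pr1 was -0.48 and 0.04 there. Coro1a, an actin regulator, had the highest ratio in Prog in both B cells (0.44) and T cells (0.40), and Rgs18, which shortens G protein signals, the lowest in B cells in Prog and Int (-0.91 and -0.70). In T cells Gng2 was lowest in Prog (-0.73) and Rac2 in Int (-0.19), Rgs2 was highest in Int (0.65), and Dock2, which links chemokine receptors to Rac, had the highest level, with ratios of -0.51 and -0.10. In B cells Rgs1 was highest in Int, at 0.33. Of the immediate early genes of B cells, 3 of 12 were called in Prog, all lower, beside 19.3% of all genes, and 0 of 12 in Int, beside 7.25%, with medians of 0.03 and -0.21 beside -0.22 and 0.03 for all genes. In T cells the called genes of this list were all higher.

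Across 46 profiles of 14 cell groups by library with at least 50 cells, the genes most like each member were found by Pearson's r of log2(CPM + 5). The profiles share libraries and cell types, so r is a description. Cxcr3 was closest to Acsbg1 (0.954) and Farp1 (0.947), and Cxcr6 to Podnl1 (0.938) and Acsbg1 (0.911), a gene that both receptors therefore shared, and Cxcr3 and Cxcr6 had an r of 0.895 with each other. Ccr6 was closest to Fcmr (0.954), the receptor for IgM, and Gm20429 (0.953), Cxcr5 to Gm15411 (0.916) and Gm30211 (0.912), and Ccr7 to Gm16158 (0.968) and Gm8369 (0.958). Cx3cr1 was closest to Lair1 (0.935) and Diaph2 (0.898), Ccr2 to Olfm1 (0.892) and Eid1 (0.855), and Cxcr4 to Sema4d (0.865) and Stk17b (0.860). For S1pr1 these were Rpl12 (0.897) and Fam3c (0.897), and for Ccr9 Gm43698 (0.885) and 1700062C10Rik (0.856).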

How the data were processed

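The 4 droplet 3′-end single-cell libraries were read as the authors deposited them: whole-number UMI counts per gene and cell barcode, made with Cell Ranger 9.0.1 on GRCm39 per the labels, without the ambient RNA correction that the study's methods describe. How reads in overlapping genes were split is not given in the sources used here. Barcodes with at least 500 UMIs, 300 genes and at most 10% mitochondrial UMIs were kept; doublets were handled by leaving out cells with markers of incompatible lineages, with Scrublet as an alternative. Cells were gated on summed marker UMIs (minimum 4 for B, 3 for T, 2 for NK, 5 for monocytes, 2 for dendritic cells), not clustered. Counts were summed per class and library into CPM, with exact Poisson, Clopper-Pearson or conditional binomial 95% intervals, which cover counting error only. Calls needed 1.5-fold and 100 UMIs over both libraries. Comparisons between cell types used exact sign-flip permutation tests over 4 libraries, which treat the libraries as independent although those of an arm share mice. Named genes were the members, the highest and lowest ratio and highest level of each list, and the 2 genes most like each member; some list genes are not reported here; others were chosen after their values were seen and are so marked. The members and lists were chosen with earlier results of these data known. Ratios were tested on simulated counts. Scripts ran in Python 3.11.15 (scanpy 1.11.5, scipy 1.17.1).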

Additional observations from a re-analysis of the deposited data

Results flagged for a closer look

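Macrophages and neutrophils were gated but belong to no comparison above. They carried 4 of the receptors in a larger share of cells than a comparison class chosen for each gene. The flag required that, before thinning, the exact 95% interval lay above that of the comparison class in every library. This separation is therefore the rule of choice and not a result. Other receptors of these classes did not meet it. In the order P-LC24, P-HC24, I-LC32, I-HC32, Cxcr4, which holds neutrophils in marrow, was found in 78.6%, 83.9%, 82.9% and 73.1% of neutrophils, numbering 131, 137, 35 and 26, against 27.3%, 12.4%, 13.2% and 8.03% of macrophages, its comparison class. S1pr1, set against monocytes as a class chosen after seeing the data, was found in 63.6%, 63.4%, 73.5% and 62.1% of macrophages (44, 418, 68 and 623 cells) and 1.77% to 6.08% of monocytes. Ccr2 was found in 20.45%, 5.26%, 14.7% and 1.77% of macrophages and Cx3cr1 in 20.45%, 11.5%, 29.4% and 17.8%, against 0.209% to 0.522% and 1.95% to 2.45% of B cells, the comparison class of both. The macrophages had a median depth of 27682.5 and 21191 UMIs at week 24, far above that of lymphocytes. After thinning, S1pr1 was found in 11.3% to 14.7% of them. Ccr2 was then found in 0.32% of macrophages and 0.026% of B cells of I-HC32, with overlapping intervals. For Cx3cr1 they overlapped in P-HC24 (1.21% against 0.61%) and I-LC32 (3.1% against 0.47%). In the remaining libraries the thinned intervals of these genes did not overlap. In Int the log2 ratio of macrophage Ccr2 was -3.64 (-4.19 to -3.10). It rested on 48 UMIs in 11 of 623 cells of I-HC32 and 75 UMIs in 10 of 68 cells of I-LC32. After thinning, 2 of 617 and 4 of 64 cells held a UMI. Neither class was compared with a replicate.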

How the results depend on the processing

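No paired analysis was possible because each condition has 1 library. The counts of called members were 1, 3, 3, 1 and 3 in Prog and 0, 3, 1, 1 and 1 in Int for B, T, NK, monocyte and dendritic cells. A 5% mitochondrial limit gave 3 in B and 1 in T cells (Prog) and 1 in B cells (Int), and no limit 2 in B cells (Prog). Giving mixed cells to 1 class gave 4 in B cells and 6 in monocytes (Prog), and 1 in B cells, 2 in NK cells and 6 in monocytes (Int). Cells without UMIs of another lineage's markers (B, or T for B cells; chosen after seeing the data) gave 3 in B, 1 in NK and 1 in dendritic cells (Prog) and 0 in NK cells (Int). Removing the highest Scrublet scores gave 2 in B cells (Prog). Weighting cells equally, and weighting subsets equally, each gave 2 in B cells and 0 in monocytes (Prog) and 1 in T cells and 0 in monocytes (Int). Thinning gave 0 in monocytes (Prog), and 1 in T cells, 0 in monocytes and 3 in dendritic cells (Int). Other totals and centring each gave 1 in T cells (Prog), UMIs per cell 1 in B cells and 2 in T cells (Int) and 2 in NK cells (Prog), doubled gate minimums 2 in NK cells (Int), and leaving out the 3 cells with most UMIs (chosen after seeing the data) 0 in NK and 2 in dendritic cells (Int) and 2 in each of these (Prog). A minimum of 20 UMIs gave 4 in B cells (Prog), and 2, 2 and 3 in NK cells, monocytes and dendritic cells (Int). A fold of 1.2 gave 6, 5 and 2 in B cells, T cells and monocytes (Prog) and 3, 6, 3, 2 and 2 in B, T, NK, monocyte and dendritic cells (Int); a fold of 2 gave 0, 1, 1 and 0 in B, T, NK cells and monocytes (Prog) and 0 in T cells, NK cells and monocytes (Int). With subsets weighted equally, Ccr9 in T cells (Prog) turned to 0.12, Ccr2 in T cells (Int) to -0.27 and Ccr7 in dendritic cells (Int) to 1.43. Of 17 called ratios, 17 were still called with doubled gates, Scrublet, mixed cells or no mitochondrial limit, 12 after thinning, and 6 of 12 with subsets weighted equally. Other counts that moved stayed within 1.5 times those above. The causes were not tested, beyond the cells named beside each result.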

Other observations

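Cxcr5 was also found in neutrophils, at 49.1, 27.6, 41.1 and 45.4 CPM from 30, 24, 5 and 7 UMIs in the library order used above, while NK cells held 1.29 to 11.6 CPM. Foxp3-bearing T cells numbered 8, 8, 21 and 15 and held 6, 1, 41 and 0 Ccr2 UMIs. NK cells with a Cx3cr1 UMI (46, 9, 24 and 7 cells) carried Gzmb at 793, 1546, 931 and 931 CPM against 377, 469, 419 and 335 CPM in the rest, and Klrg1, a receptor of mature NK cells, at 325, 193, 168 and 215 CPM against 112, 97.5, 82.4 and 69.0 CPM. NK cells with a Ccr2 UMI carried less Gzmb, at 345, 263, 341 and 199 CPM against 594, 836, 683 and 634 CPM. These genes were picked after their values were seen.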
